A study of Macaca mulatta with 4 samples.

Results

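FKBP5, TSC22D3, DDIT4, SGK1, PER1, KLF9, CD163, TXNIP, CEBPD and ZFP36L2 are known targets of the glucocorticoid receptor, and they were taken as a list by their symbols. All 10 were found among the 15354 gene rows of a single-cell RNA sequencing study of rhesus macaque peripheral blood mononuclear cells. The study followed macaques given islets made from human pluripotent stem cells against diabetes, with 1 library for each of 4 blood draws. The Pre-IS library preceded immunosuppression, the Post-IS library followed it and preceded the transplant, and the 4 wpt and 8 wpt libraries came 4 and 8 weeks after transplantation. The labels name neither the immunosuppressive agents nor the animals. Whether a glucocorticoid was among the agents, and whether they were still given at 4 and 8 wpt, is not stated there.

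Glucocorticoids such as cortisol enter cells and bind the glucocorticoid receptor, which the gene NR3C1 encodes. Chaperones of the HSP90 family hold the unbound receptor in the cytoplasm, and the bound receptor moves to the nucleus and acts on genes near its binding sites. Some targets respond in nearly all cell types and others, such as the scavenger receptor CD163, are known from monocytes and macrophages.

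RNA molecules were counted by their UMIs (unique molecular identifiers). The libraries held 603 to 2580 cells, with a median depth of 1168 UMIs per cell at Post-IS and 1563 to 3551 in the other libraries. Post-IS had the fewest cells and the lowest depth, and mitochondrial genes took 1.36% of its UMIs, against 0.653% to 0.948% in the other libraries. Pairs of libraries shared 0 to 12 cell barcodes. The authors' cell labels were used, and the 6 T cell marker genes summed to 3020 to 3779 CPM (counts per 1000000 UMIs of a class in a library) in T cells. The 6 classical monocyte markers summed to 21777 to 24765 CPM in CD14+ monocytes, and the 6 nonclassical markers to 3627 to 5367 CPM in MS4A7+ monocytes. In T cells the 6 NK cell markers, with NCAM1 at 0, summed to 1646 CPM at Pre-IS, 668 at Post-IS, 1071 at 4 wpt and 1869 at 8 wpt. The T cell label thus differed between draws in these markers, and the bearing of this on the T cell ratios was not tested. Levels were compared in classes of at least 50 cells. At Post-IS the T cells (115), CD14+ monocytes (329) and MS4A7+ monocytes (131) reached this number, and NK cells (9), B cells (12) and naive B cells (1) did not. Each group was 1 library, so no test between groups was possible, and every 95% interval covers counting error only.

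**Figure D1:**
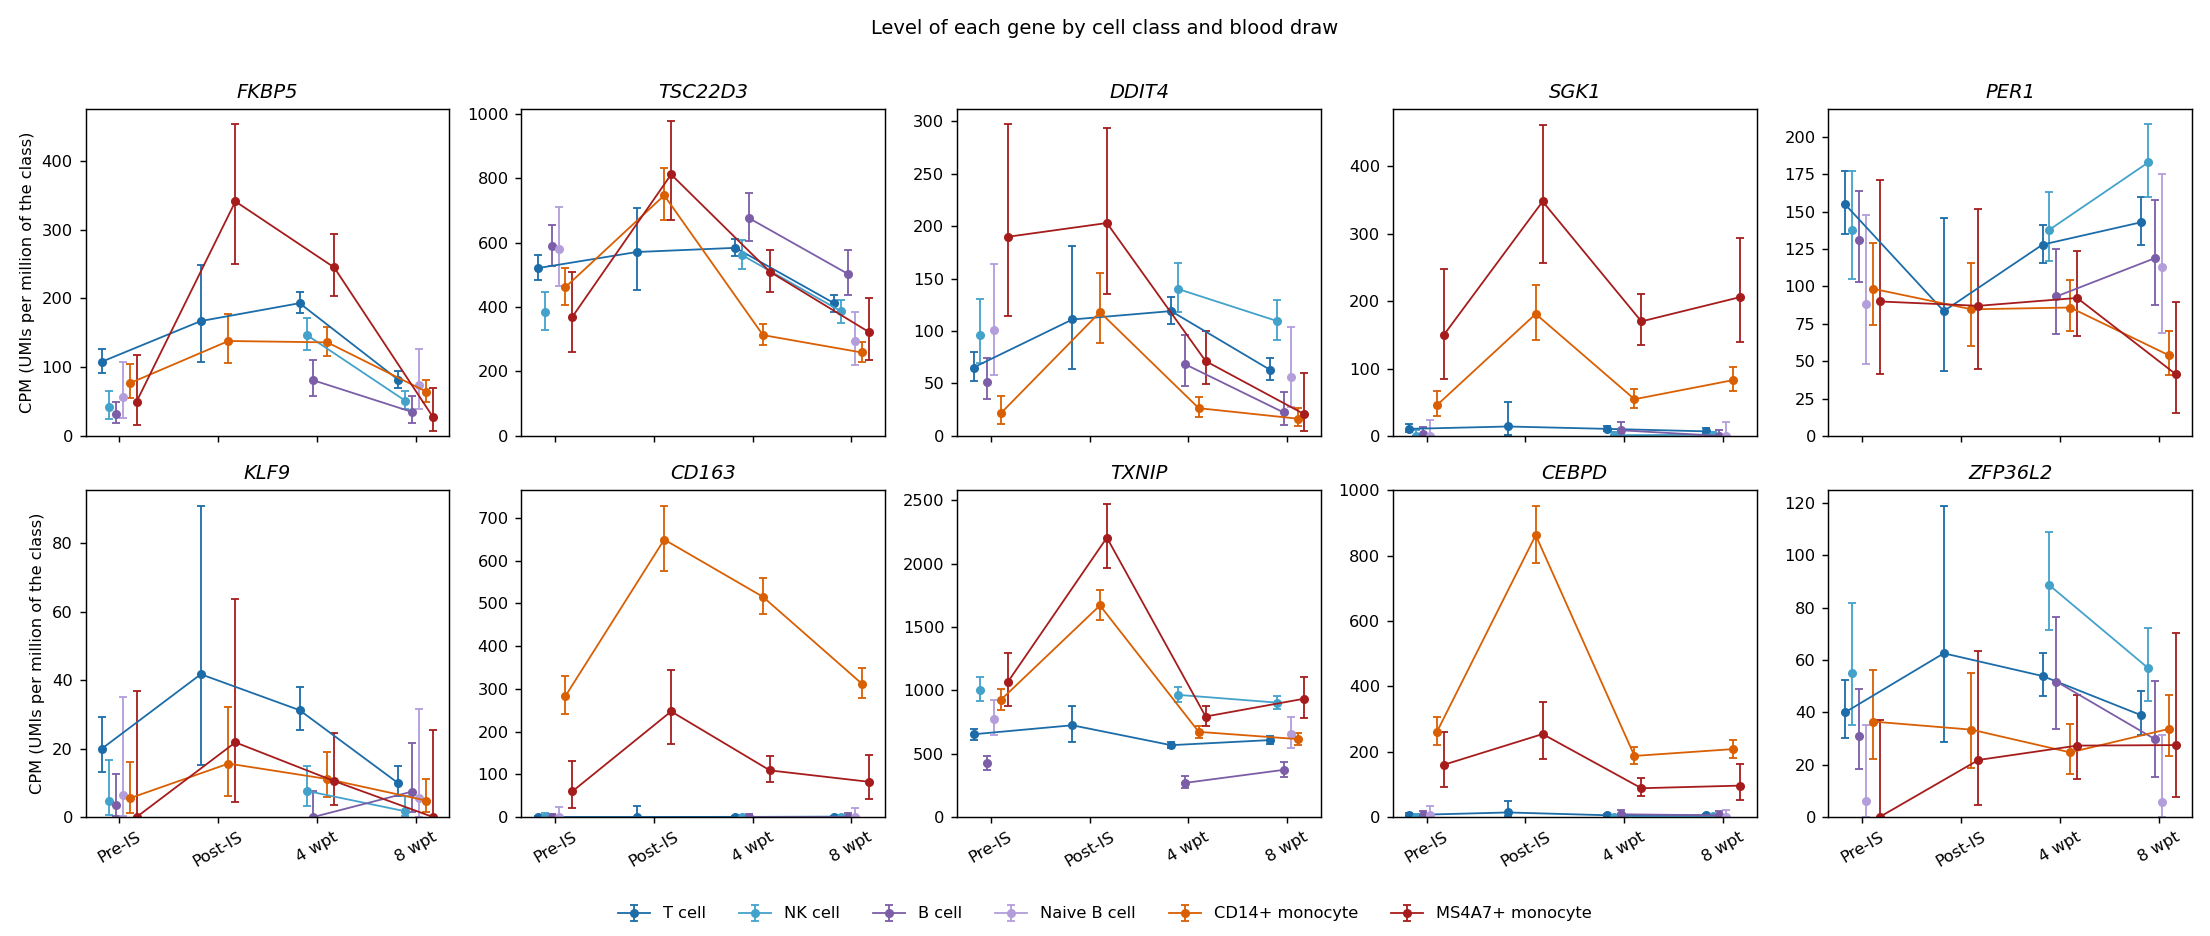
CPM of each gene (vertical axis, linear, from 0) by blood draw (horizontal axis) in 6 cell classes, with exact Poisson 95% intervals and lines joining neighbouring draws of a class. FKBP5 was highest at Post-IS or 4 wpt in each class that has these draws, while TSC22D3, SGK1, TXNIP and CEBPD in monocytes were highest at Post-IS.

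FKBP5 encodes a co-chaperone that lowers the hormone affinity of the receptor and closes a feedback loop on it. In T cells FKBP5 stood at 108 CPM at Pre-IS, 167 at Post-IS, 193 at 4 wpt and 81.5 at 8 wpt. In CD14+ monocytes FKBP5 stood at 76.6, 138, 136 and 64.5 CPM at the same draws, and in MS4A7+ monocytes at 49.98, 341, 245 and 27.5 CPM. The middle draws were the high ones in all 3 classes, and the Pre-IS and 8 wpt intervals overlapped in each. FKBP5 in NK cells was 41.3 CPM at Pre-IS, 147 at 4 wpt and 51.0 at 8 wpt, and in B cells it was 31.1, 80.8 and 34.7 CPM at these draws. The 4 wpt level was thus the highest of those measured in these lymphocytes too.

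At Post-IS over Pre-IS, FKBP5 was 1.54-fold higher in T cells, with an interval of 0.958 to 2.39 that includes 1 and rests on 24 Post-IS UMIs. It was 1.80-fold higher in CD14+ monocytes (1.200 to 2.74) and 6.82-fold higher in MS4A7+ monocytes (2.72 to 22.0, with 5 Pre-IS UMIs). At 4 wpt over Pre-IS the FKBP5 ratios were 1.78 in T cells (1.49 to 2.15), 3.56 in NK cells (2.18 to 6.16), 2.60 in B cells (1.45 to 4.83), 1.78 in CD14+ monocytes (1.26 to 2.56) and 4.91 in MS4A7+ monocytes (2.05 to 15.4). All 5 intervals lay above 1. At 8 wpt over Pre-IS the ratio was 0.753 in T cells (0.602 to 0.943), and the intervals of the other 5 classes included 1. Set against 4 wpt, a comparison chosen after the values were seen, FKBP5 at 8 wpt was 2.37-fold lower in T cells (2.005 to 2.81), 2.88-fold lower in NK cells (2.13 to 3.94) and 2.33-fold lower in B cells (1.24 to 4.65). It was 2.11-fold lower in CD14+ monocytes (1.58 to 2.85) and 8.94-fold lower in MS4A7+ monocytes (3.40 to 33.3, with 4 UMIs at 8 wpt).

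The libraries differ in depth, so shares of cells with a UMI were taken after thinning each cell to 1000 UMIs and leaving out shallower cells. At that depth 10.4% of T cells at Pre-IS held an FKBP5 UMI, 12.9% at Post-IS, 18.6% at 4 wpt and 6.33% at 8 wpt. Unthinned, the T cell shares were 15.6%, 17.4%, 46.1% and 13.2%, at median depths of 1526, 1257, 3626 and 1810 UMIs. In CD14+ monocytes the thinned FKBP5 shares were 7.24%, 16.0%, 15.5% and 4.79%, and unthinned 14.1%, 16.4%, 34.6% and 16.5%. At 600 UMIs the CD14+ shares were 5.10%, 4.98%, 8.65% and 3.18%, so Post-IS was not above Pre-IS in that draw of UMIs. The mean over all possible draws, a measure added after seeing the data, was 7.65%, 14.1%, 12.7% and 6.20% at 1000 UMIs and 4.10%, 7.70%, 7.79% and 3.65% at 600 UMIs. Thinning left out 88, 30, 35 and 52 T cells and 35, 142, 29 and 12 CD14+ monocytes at the 4 draws. The order of the draws in T cells was the same in the thinned shares and in the CPM. As a measure of free RNA, thinned T cells showed a UMI of CD163, a gene of monocytes, in 0 of 753 cells at Pre-IS, 0 of 85 at Post-IS, 1 of 854 at 4 wpt and 0 of 1122 at 8 wpt. The counts of 0 allow shares of up to 0.398%, 3.53% and 0.267%. CD163 alone is a limited measure of free RNA. The 6 classical monocyte markers summed in T cells to 24.4 CPM at Pre-IS, 139 at Post-IS, 44.5 at 4 wpt and 66.2 at 8 wpt.

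**Figure D2:**
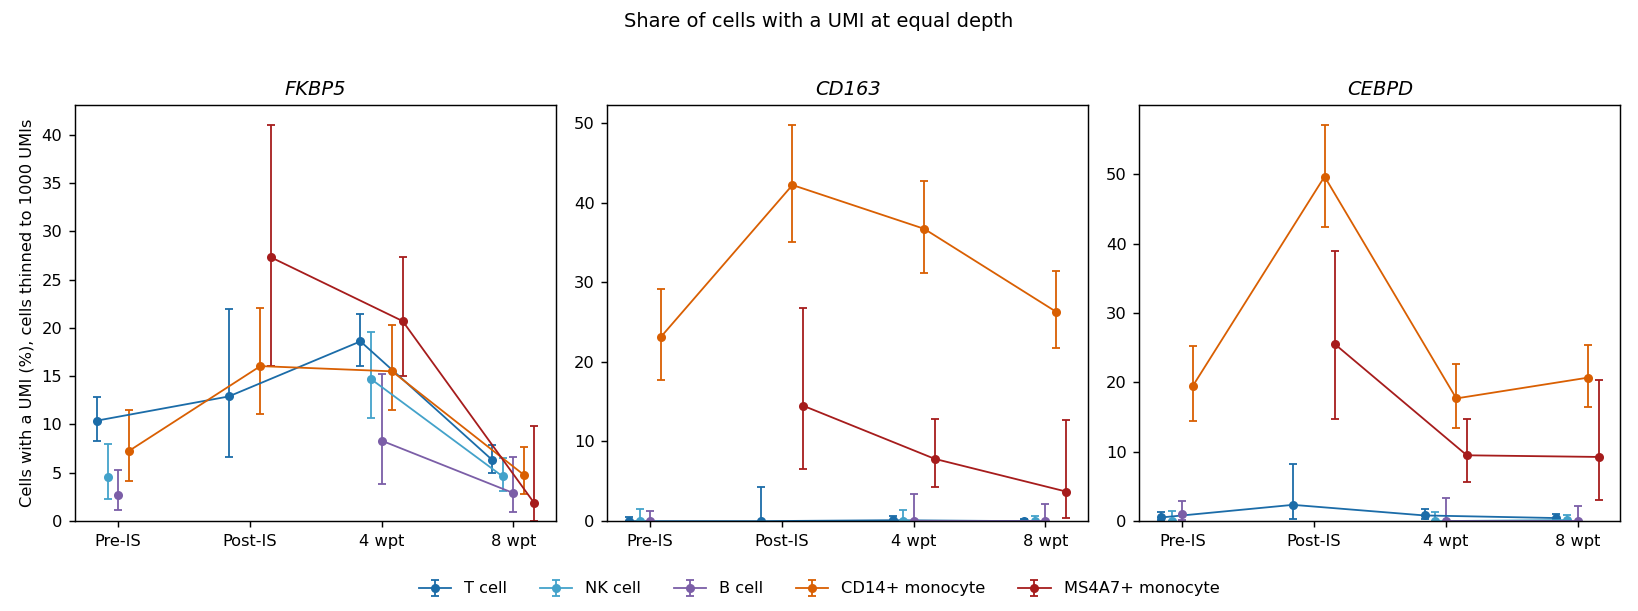
Share of cells with a UMI (vertical axis, %, a scale for each panel) of FKBP5, CD163 and CEBPD by blood draw, with cells thinned to 1000 UMIs and exact binomial 95% intervals. Points are drawn where at least 50 cells remained. FKBP5 reached 18.6% of T cells at 4 wpt, and CD163 and CEBPD stayed at 2.35% or less of lymphocytes while up to 49.7% of CD14+ monocytes held CEBPD.

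TSC22D3, known as GILZ, encodes a protein that restrains NF-kB and AP-1 signalling. TSC22D3 in CD14+ monocytes was 462 CPM at Pre-IS, 747 at Post-IS, 313 at 4 wpt and 259 at 8 wpt. MS4A7+ monocytes had 370, 812, 510 and 323 CPM of it. In T cells it was 521, 571, 584 and 412 CPM. The Post-IS draw was highest in both monocyte classes, while in T cells the first 3 draws lay within 1.12-fold of Pre-IS. At Post-IS over Pre-IS TSC22D3 was 1.62-fold higher in CD14+ monocytes (1.37 to 1.91) and 1.09 times the Pre-IS level in T cells (0.859 to 1.38). Relative to Pre-IS, the 8 wpt level was 1.78-fold lower in CD14+ monocytes (1.496 to 2.13) and 1.97-fold lower in naive B cells (1.39 to 2.83).

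DDIT4 encodes an inhibitor of mTORC1 signalling that stress and glucocorticoids induce. DDIT4 in CD14+ monocytes was 21.9 CPM at Pre-IS, 118 at Post-IS, 26.4 at 4 wpt and 16.4 at 8 wpt, so the Post-IS draw stood apart from the other 3 and was 5.397-fold above Pre-IS (2.85 to 11.1). In T cells it was 65.2, 111, 119 and 63.1 CPM, and at 4 wpt it was 1.83-fold above Pre-IS (1.45 to 2.33). In MS4A7+ monocytes it was 190, 203, 71.3 and 20.6 CPM, which is 2.66-fold lower at 4 wpt than at Pre-IS (1.43 to 4.803) and 9.22-fold lower at 8 wpt than at Pre-IS (2.71 to 48.6, with 3 UMIs at 8 wpt). The 4 wpt draw, at which FKBP5 was high in these cells, was thus a low draw for DDIT4.

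SGK1 encodes a kinase of ion transport and cell survival that was named for its induction by serum and glucocorticoids. SGK1 UMIs were mostly found in monocytes, where MS4A7+ cells had 150, 348, 170 and 206 CPM at the 4 draws, and CD14+ cells had 45.6, 181, 54.4 and 82.8 CPM. T cells had 6.71 to 13.9 CPM. At Post-IS over Pre-IS SGK1 was 3.96-fold higher in CD14+ monocytes (2.501 to 6.47) and 2.32-fold higher in MS4A7+ monocytes (1.28 to 4.46). At 8 wpt it was 1.81-fold above Pre-IS in CD14+ monocytes (1.15 to 2.96), the only member with at least 20 UMIs that was at least 1.5-fold higher at that draw in any class compared.

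CD163 encodes a scavenger receptor for haemoglobin bound to haptoglobin. In CD14+ monocytes CD163 stood at 283 CPM at Pre-IS, 649 at Post-IS, 515 at 4 wpt and 312 at 8 wpt. MS4A7+ monocytes had levels of 60.0, 247, 109 and 82.4 CPM, so the point values had the same order of draws in both classes. In MS4A7+ monocytes 3 counts were 29.99 CPM at Pre-IS and 20.6 CPM at 8 wpt, so the levels at these draws rest on few UMIs. CD163 was 2.29-fold higher in CD14+ monocytes at Post-IS over Pre-IS (1.88 to 2.81), and at 4 wpt it was still 1.82-fold above Pre-IS (1.53 to 2.19). The 8 wpt over Pre-IS ratio was 1.10 (0.908 to 1.34). At equal depth 23.1%, 42.2%, 36.7% and 26.3% of CD14+ monocytes held a CD163 UMI at the 4 draws. Unthinned T cells held 0, 0, 1 and 1 UMIs of CD163 in all, and the counts of 0 allow up to 2.22 CPM at Pre-IS and 20.9 CPM at Post-IS.

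CEBPD encodes a transcription factor of the acute phase and of myeloid cells. CEBPD in CD14+ monocytes was 261 CPM at Pre-IS, 863 at Post-IS, 187 at 4 wpt and 208 at 8 wpt. MS4A7+ monocytes had levels of 160, 254, 88.1 and 96.1 CPM. Both classes had their highest level at Post-IS and lower levels at both later draws than at Pre-IS, where the intervals of the MS4A7+ ratios included 1. In CD14+ monocytes the ratio was 3.31 at Post-IS over Pre-IS (2.72 to 4.03), 0.717 at 4 wpt over Pre-IS (0.579 to 0.892) and 0.797 at 8 wpt over Pre-IS (0.642 to 0.991).

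TXNIP encodes an inhibitor of thioredoxin that limits glucose uptake. TXNIP in CD14+ monocytes was 927 CPM at Pre-IS, 1670 at Post-IS, 672 at 4 wpt and 615 at 8 wpt, while MS4A7+ monocytes had 1069, 2205, 793 and 934 CPM. The Post-IS level was 1.80-fold above Pre-IS in CD14+ monocytes (1.61 to 2.02) and 2.06-fold in MS4A7+ monocytes (1.65 to 2.59). In T cells TXNIP was 653, 724, 567 and 607 CPM, and in NK cells it was 903 to 1004 CPM at the 3 draws with enough cells. In B cells it was 269 CPM at 4 wpt against 423 CPM at Pre-IS, a 1.57-fold lower level (1.26 to 1.96).

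PER1, a repressor of the circadian clock with a glucocorticoid response element in its promoter, did not have a higher level at Post-IS in any class compared. PER1 in T cells was 155 CPM at Pre-IS, 83.5 at Post-IS, 128 at 4 wpt and 143 at 8 wpt. At Post-IS over Pre-IS it was 1.85-fold lower in T cells (1.04 to 3.65, with 12 Post-IS UMIs), with ratios of 0.860 in CD14+ monocytes (0.552 to 1.33) and 0.968 in MS4A7+ monocytes (0.374 to 2.60). The 8 wpt level was 1.83-fold below Pre-IS in CD14+ monocytes (1.23 to 2.71). The hour of each draw, which bears on a clock gene, is not given in the labels.

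KLF9 reached 20 UMIs per pair of libraries mainly in T cells. KLF9, a zinc finger transcription factor, stood at 20, 41.7, 31.2 and 9.85 CPM in T cells at the 4 draws. It was 2.09-fold higher at Post-IS than at Pre-IS (0.705 to 5.16, with 6 Post-IS UMIs), 1.56-fold higher at 4 wpt (1.01 to 2.49) and 2.03-fold lower at 8 wpt (1.11 to 3.74). Its order of draws in T cells differed from that of FKBP5 only at Post-IS and 4 wpt, whose KLF9 intervals overlap. ZFP36L2 encodes a protein that speeds the decay of mRNAs with AU-rich elements. ZFP36L2 in NK cells was 55.0 CPM at Pre-IS, 88.6 at 4 wpt and 56.9 at 8 wpt, with a 4 wpt over Pre-IS ratio of 1.61 (1.02 to 2.64). In CD14+ monocytes it was 36.5, 33.4, 24.7 and 33.7 CPM, and each ratio to Pre-IS had an interval that included 1.

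A member was called higher or lower where its CPM ratio was at least 1.5-fold. Only members with at least 20 UMIs over the pair of libraries were counted. The call uses the ratio alone, so the interval of a called member can include 1. The members and lists were chosen with earlier results of these data known, so their shares beside all genes are not an independent comparison. At Post-IS over Pre-IS, 7 of 9 counted members were higher in CD14+ monocytes and 0 were lower, against 16.6% of all genes higher and 13.0% lower. In MS4A7+ monocytes 6 of 8 were higher and 0 lower, against 18.4% and 12.9% of all genes. In T cells 4 of 7 were higher (FKBP5, DDIT4, KLF9 and ZFP36L2) and 1 lower (PER1), against 14.4% and 28.4% of all genes, but none of the 4 had an interval above 1. The median log2 ratio of the counted members was 0.85 in CD14+ monocytes, 1.08 in MS4A7+ monocytes and 0.65 in T cells, and that of all genes was 0.04, 0.02 and -0.00. With cells weighted equally PER1 and ZFP36L2 made 2 lower members in CD14+ monocytes, and at 2-fold the higher members there were 4 and in T cells 1. In cells thinned to 1000 UMIs, 7 of 8 counted members were higher in CD14+ monocytes and 2 of 6 in T cells, and MS4A7+ monocytes had too few Pre-IS cells of that depth. The lymphocyte and monocyte counts were not tested against each other.

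**Figure D3:**
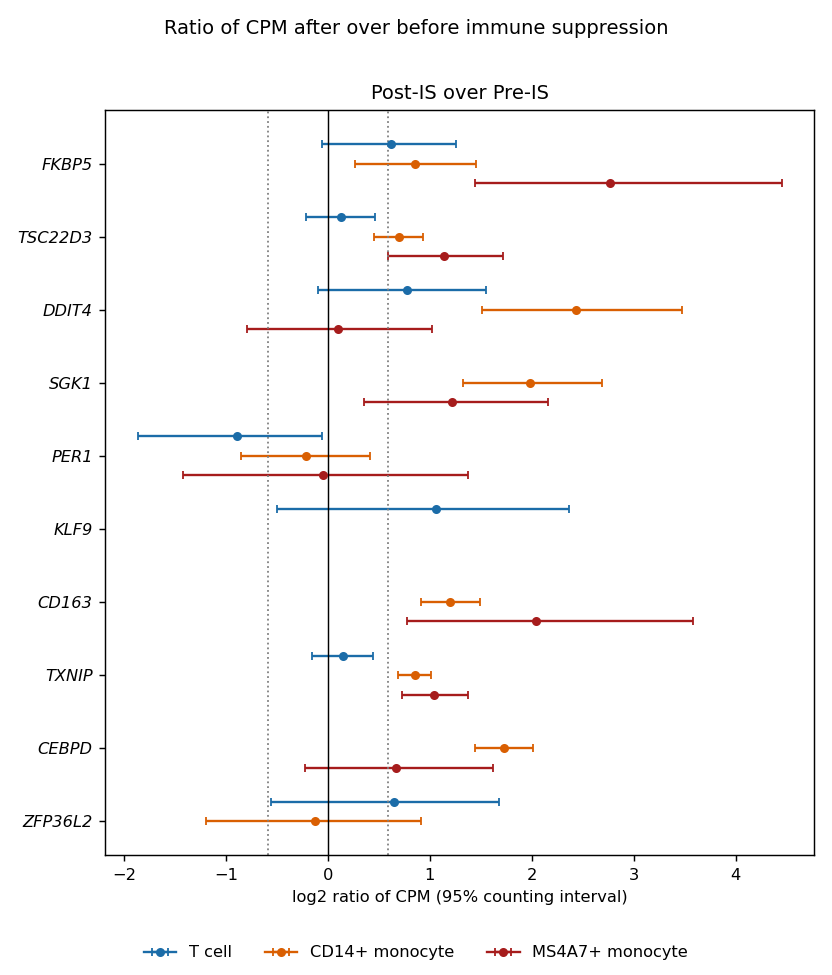
Log2 ratio of CPM at Post-IS over Pre-IS (horizontal axis) for each gene in T cells, CD14+ monocytes and MS4A7+ monocytes, with 95% counting intervals, where both libraries together held at least 20 UMIs. Dotted lines mark 1.5-fold. In CD14+ monocytes 7 of 9 genes lie past the upper line, and PER1 and ZFP36L2 lie below 0.

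Other values moved with the Post-IS monocyte levels, and their part in the result was not tested. Of 8 counted early-response genes, which dissociation and handling of cells can raise, 7 were at least 1.5-fold higher and 0 lower in Post-IS CD14+ monocytes over Pre-IS, with a median log2 ratio of 1.47. Of all genes in these cells 16.6% were higher and 13.0% lower. JUN was 7.05-fold and FOS 2.42-fold higher. In T cells 2 of 4 were higher and 1, JUN, was lower (14.4% and 28.4% of all genes). In MS4A7+ monocytes 1 of 5 was higher and 0 lower (18.4% and 12.9% of all genes). FOS was 3.58-fold higher in T cells (1.37 to 8.41, with 8 Post-IS UMIs). It was 7.26-fold higher in MS4A7+ monocytes (2.91 to 23.3, with 5 Pre-IS UMIs). The 6 platelet markers summed to 25.5 CPM at Pre-IS, 267 at Post-IS, 21.3 at 4 wpt and 201 at 8 wpt in CD14+ monocytes. At Pre-IS PF4, GP9 and ITGA2B were at 0, at 4 wpt GP9, ITGA2B, TUBB1 and GP1BB were at 0, and at Post-IS and 8 wpt all 6 were detected. In MS4A7+ monocytes these markers summed to 0 (which allows up to 29.99 CPM), 131, 33.6 and 82.4 CPM. Classical monocyte markers in T cells summed to 24.4 CPM at Pre-IS, 139 at Post-IS, 44.5 at 4 wpt and 66.2 at 8 wpt, with VCAN and FCN1 at 0 at Post-IS.

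At 4 wpt over Pre-IS FKBP5 was on the higher side in all 5 classes compared. In T cells 3 of 9 counted members were higher (FKBP5, DDIT4 and KLF9) and 0 lower, against 13.3% and 7.15% of all genes. In NK cells 2 of 6 were higher and 0 lower (17.5% and 9.31% of all genes), and in B cells 2 of 6 were higher and 1 lower (15.8% and 12.4%). FKBP5 and ZFP36L2 were the higher members in both, and TXNIP was the lower one in B cells. In CD14+ monocytes 2 of 9 were higher (FKBP5 and CD163) and 0 lower (13.2% and 12.4% of all genes), with a median log2 ratio of -0.20 over the members and -0.03 over all genes. In MS4A7+ monocytes 2 of 8 were higher (FKBP5 and CD163) and 2 lower (DDIT4 and CEBPD), against 22.6% and 14.3% of all genes.

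At the main settings, lower members outnumbered higher ones at 8 wpt over Pre-IS in each class except NK cells, which had neither. The other classes had only 1 to 3 lower members each. No member was higher in T cells and 2 of 9 were lower (KLF9 and SGK1), against 9.08% and 5.52% of all genes. SGK1 there rests on 15 UMIs at 8 wpt and 14 at Pre-IS. In CD14+ monocytes 1 of 9 was higher (SGK1) and 3 lower (TSC22D3, PER1 and TXNIP), against 11.8% and 9.45% of all genes, with a median log2 ratio of -0.33. In NK cells 0 of 6 were higher or lower (15.4% and 6.89% of all genes). In B cells 0 of 6 were higher and 1 lower, DDIT4 (11.3% and 11.8%). In naive B cells 0 of 5 were higher and 2 lower, TSC22D3 and DDIT4 (12.1% and 11.0%), and in MS4A7+ monocytes 0 of 5 were higher and 2 lower, DDIT4 and CEBPD (13.0% and 16.8%). The excess of lower members depended on the settings in some classes. With TMM scaling MS4A7+ monocytes had 1 higher and 1 lower. At a higher UMI minimum T cells and MS4A7+ monocytes had 0 lower. At 2-fold CD14+ monocytes had 0 higher and 0 lower. The early-response genes of CD14+ monocytes were low at both later draws, with 7 of 8 counted genes lower than Pre-IS at 4 wpt and 8 of 8 at 8 wpt. Of all genes 12.4% and 9.45% were lower at these draws. The part of the early-response genes in the lower member levels was not tested.

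**Figure D4:**
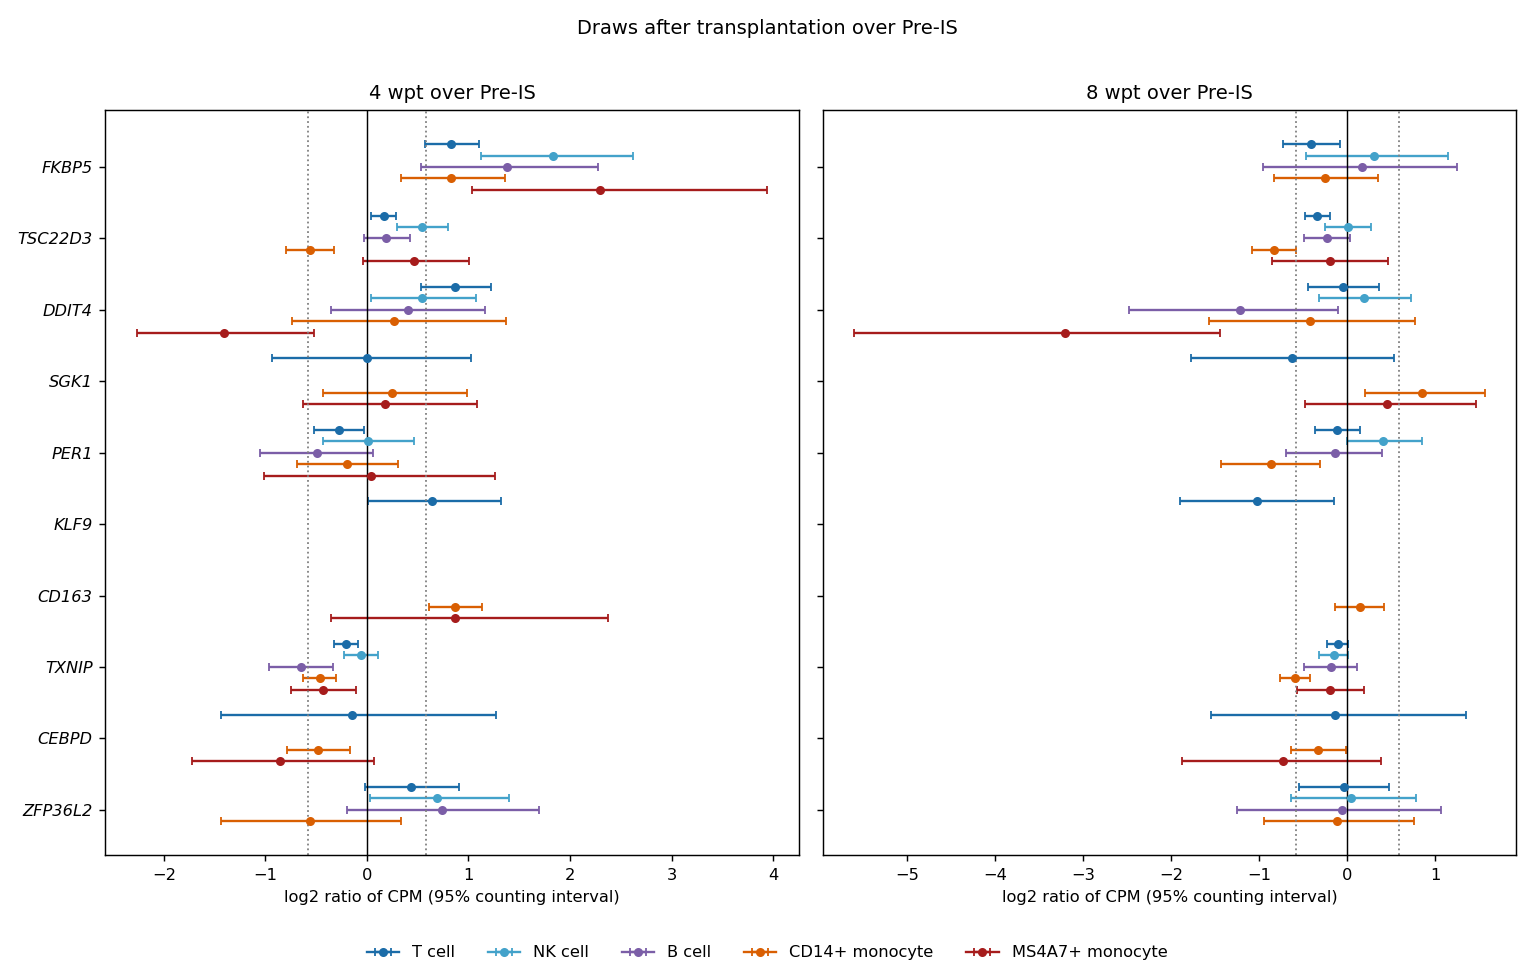
Log2 ratio of CPM at 4 wpt over Pre-IS (left) and 8 wpt over Pre-IS (right) for each gene in 5 cell classes, with 95% counting intervals, where both libraries together held at least 20 UMIs. Dotted lines mark 1.5-fold. FKBP5 lies above 0 in all 5 classes at 4 wpt, and at 8 wpt the interval of FKBP5 stays below 0 in T cells and spans 0 in NK cells, B cells and CD14+ monocytes.

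The later draws were also set against Post-IS, a comparison that shares the Post-IS counts with the one over Pre-IS. At 4 wpt over Post-IS, 5 of 10 counted members were lower and 0 higher in CD14+ monocytes (15.4% and 14.1% of all genes), and 6 of 8 were lower and 0 higher in MS4A7+ monocytes (15.0% and 19.2%). CEBPD in CD14+ monocytes was 4.61-fold lower (3.90 to 5.46), whereas FKBP5 was near its Post-IS level with a ratio of 0.985 (0.730 to 1.34). In T cells 1 of 8 was higher (PER1) and 0 lower (32.7% and 14.4%). At 8 wpt over Post-IS, 8 of 9 were lower and 0 higher in CD14+ monocytes (13.5% and 14.0% of all genes) and 7 of 7 lower in MS4A7+ monocytes (22.2% lower and 12.3% higher). In T cells 4 of 7 were lower and 1 higher (14.6% and 32.6%). FKBP5 was 2.05-fold lower in T cells (1.28 to 3.15), 2.14-fold lower in CD14+ monocytes (1.49 to 3.07) and 12.4-fold lower in MS4A7+ monocytes (4.54 to 47.4).

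Within each library, CD14+ monocytes were set against T cells to separate members of monocytes from broadly expressed ones. SGK1, CD163 and CEBPD were at least 1.5-fold higher in CD14+ monocytes in all 4 libraries, 3 of 9 members with at least 20 UMIs in every library, against 22.3% of all genes. None of these 9 members was lower in all 4 (10.1% of all genes), and 4 libraries are too few for a two-sided sign test to reach 0.05. KLF9, left out because it held under 20 UMIs at Post-IS, had ratios of 0.274, 0.374, 0.354 and 0.489. Its intervals at Post-IS (0.108 to 1.35) and 8 wpt (0.145 to 1.32) included 1. CD14+ monocytes had 4.40, 13.0, 5.23 and 12.3 times the T cell level of SGK1 at the 4 draws and 44.0, 62.0, 34.9 and 38.7 times that of CEBPD. CD163 was at least 127-fold higher at Pre-IS and at least 31.1-fold higher at Post-IS, against a floor of 3 counts in the T cells of each library. At 4 wpt the CD163 ratio was 1635 (292 to 64673) and at 8 wpt 697 (124 to 27597), each with 1 T cell UMI. FKBP5 had ratios of 0.708, 0.828, 0.705 and 0.791, close to each other at all draws. DDIT4 stood lower in CD14+ monocytes than in T cells at Pre-IS (0.336), 4 wpt (0.221) and 8 wpt (0.259), and at Post-IS the ratio was 1.06 (0.597 to 1.99). TXNIP had ratios of 1.42, 2.31, 1.19 and 1.01, highest at Post-IS.

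**Figure D5:**
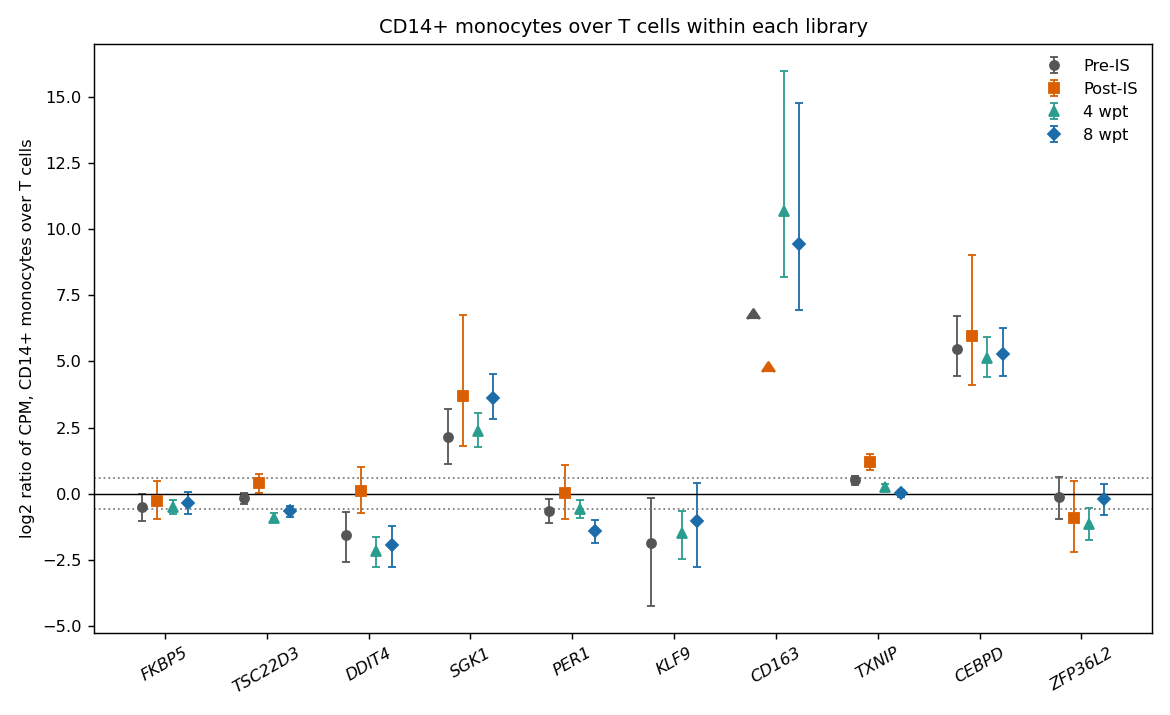
Log2 ratio of CPM in CD14+ monocytes over T cells (vertical axis) within each library, with 95% counting intervals, where both classes together held at least 20 UMIs. Triangles without an interval stand for CD163 at Pre-IS and Post-IS, where T cells had 0 UMIs and the ratio is a lower bound against 3 counts. SGK1, CD163 and CEBPD lie above the upper dotted line of 1.5-fold in all 4 libraries.

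Cells were also described by how many of the 10 genes they held at 1000 UMIs. CD14+ monocytes held a mean of 1.63 members at Pre-IS, 2.71 at Post-IS, 1.60 at 4 wpt and 1.36 at 8 wpt, and 4.07%, 25.1%, 4.59% and 2.69% of these cells held 4 or more. T cells held a mean of 1.21, 1.34, 1.33 and 1.07 members, and 0.398%, 2.35%, 2.46% and 0.535% of them held 4 or more. MS4A7+ monocytes held 2.49 at Post-IS, 1.60 at 4 wpt and 1.24 at 8 wpt, and their 42 Pre-IS cells of that depth were too few to compare. The share of CD14+ monocytes with 4 or more was thus highest at Post-IS. The T cell share was lower in every library, and its point values were higher at Post-IS and 4 wpt than at Pre-IS and 8 wpt. At Post-IS it rests on 2 of 85 T cells. The binomial interval of that count, 0.286% to 8.24%, includes the Pre-IS and 8 wpt shares.

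The receptor gene NR3C1 stood at 70.4 CPM at Pre-IS, 76.5 at Post-IS, 91.8 at 4 wpt and 90.4 at 8 wpt in T cells, and at 60.2, 66.9, 75.7 and 69.3 CPM in CD14+ monocytes. In MS4A7+ monocytes it stood at 99.95, 167, 157 and 137 CPM, with a Post-IS over Pre-IS ratio of 1.67 (0.764 to 3.93). NR3C1 thus varied less between draws than FKBP5 did. Of the 18 receptor, chaperone and cofactor genes found, 2 of 14 counted ones were higher and 0 lower at Post-IS over Pre-IS in CD14+ monocytes, 5 of 9 were higher and 0 lower in MS4A7+ monocytes, and 1 of 15 was higher and 3 lower in T cells. The all-gene shares of higher and lower calls were 16.6% and 13.0% in CD14+ monocytes, 18.4% and 12.9% in MS4A7+ monocytes and 14.4% and 28.4% in T cells, so the CD14+ and T cell counts were not above them. HSPA8, an HSP70 chaperone that loads the receptor onto HSP90, was 2.61-fold higher in MS4A7+ monocytes (1.80 to 3.86). At 4 wpt over Pre-IS 4 of 16 were higher and 0 lower in T cells (13.3% and 7.15% of all genes), among them the corepressor NCOR1 with a ratio of 1.97 (1.59 to 2.46).

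Of 23 further glucocorticoid-induced genes found, 8 of 13 counted ones were higher and 0 lower at Post-IS over Pre-IS in CD14+ monocytes, against the 16.6% of all genes that were higher. In MS4A7+ monocytes 2 of 7 were higher and 0 lower (18.4% of all genes higher), and in T cells 3 of 11 were higher and 0 lower (14.4%). PDK4, a kinase that shuts off pyruvate dehydrogenase, was 16.5-fold higher in CD14+ monocytes (4.15 to 143), with 27 Post-IS UMIs and 2 Pre-IS UMIs. TNFAIP3, the NF-kB inhibitor A20, was 3.97-fold higher (1.75 to 10.1). DUSP1 was higher in these cells too, with an interval beyond 1.5-fold. Early-response genes were also higher there (7 of 8 counted, against 16.6% of all genes). Their part in the count of induced genes was not tested. At 4 wpt over Pre-IS 1 of 15 was higher and 4 lower in CD14+ monocytes (13.2% and 12.4% of all genes), where the phosphatase DUSP1 was 2.50-fold lower (2.19 to 2.87) and ZFP36, an mRNA decay factor, 2.16-fold lower (1.96 to 2.38). In NK cells 5 of 10 were higher and 0 lower at that draw (17.5% and 9.31% of all genes), and BCL2L11, which promotes apoptosis, stood at 22.9 CPM against 2.29 CPM at Pre-IS, with 1 Pre-IS UMI. At 8 wpt over Pre-IS 0 of 14 were higher and 5 lower in CD14+ monocytes (11.8% and 9.45% of all genes), and 1 of 12 was higher and 3 lower in T cells (9.08% and 5.52%).

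Of 13 inflammatory genes found that glucocorticoids are known to repress, few were abundant enough to count. At Post-IS over Pre-IS 1 of 3 was higher and 0 lower in CD14+ monocytes (16.6% and 13.0% of all genes). The 1 gene counted in T cells and the 1 in MS4A7+ monocytes were each lower, as were 28.4% and 12.9% of all genes there. CCL3 was 4.37-fold lower in T cells (0.741 to 177, with 1 Post-IS UMI) and the cytokine gene IL1B 1.91-fold lower in MS4A7+ monocytes (0.884 to 4.24), and both intervals include 1. The gene higher in CD14+ monocytes was PTGS2, which encodes cyclooxygenase-2. PTGS2 stood at 227 CPM at Post-IS against 63.9 CPM at Pre-IS, a 3.56-fold higher level (2.40 to 5.39). At 4 wpt it was 5.36-fold below Pre-IS (2.81 to 10.8) and at 8 wpt 7.37-fold below (3.47 to 17.4). In T cells the chemokine gene CCL3 was 3.57-fold lower at 4 wpt than at Pre-IS (2.14 to 6.03). TNF, an inflammatory cytokine, was 12.1-fold higher in MS4A7+ monocytes at 4 wpt than at Post-IS (3.26 to 102), with 2 Post-IS UMIs.

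Over 18 pairs of class and library, with the mean of each class removed, the genes whose log2 level followed FKBP5 most closely were BDP1 (r = 0.94) and GOLGA4, WASF2, GNAS and ATP6 (each r = 0.91), among 2890 genes. ATP6 is a mitochondrially encoded gene, and mitochondrial genes took 0.653%, 1.36%, 0.948% and 0.741% of the UMIs at the 4 draws. Whether this share bears on the FKBP5 levels was not tested. The genes that followed TSC22D3 most closely were DUSP1 (0.92), CXCR4 (0.90), FOS (0.89), KLF6 (0.87) and STK17B (0.87), a set that holds the early-response gene FOS. Among the 45 pairs of members r ran from -0.44 (PER1 with ZFP36L2) to 0.87 (TXNIP with CEBPD), with a median of 0.45 and 40 pairs above 0. The points of a library share its depth and handling, so these values describe the 4 libraries and carry no test.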

How the data were processed

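For each library the authors deposited raw UMI counts of every gene and cell, and other tables give 1 cell type label per barcode. Per the labels' protocols these are 10x Genomics 5' V1 libraries read as paired 150 bp reads. Cell Ranger 3.1.0, the build Mmul_10 and Seurat 3.2.3 come from the submitters' processing notes. How cells and genes were filtered is not given in the sources used here, nor is any removal of doublets.

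UMIs were summed per label and library and divided by the class total (CPM), with Python 3.11.15, numpy 2.4.6, scipy 1.17.1 and pandas 2.3.3. Levels have exact Poisson 95% intervals, ratios exact conditional binomial ones and shares of cells exact Clopper-Pearson ones. With 1 library per group and no separate cultures or animals in the labels, no model was fitted, and classes of under 50 cells were not compared. Medians use an offset of 0.5 UMIs. A count of 0 allows 3 counts, which is 20.9 CPM in Post-IS T cells and 0.946 CPM in 4 wpt T cells. Ratios, intervals and calls were tested on simulated data.

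The members and lists were chosen with earlier results of these data known. All members and NR3C1 were named. Other genes were named from up to 3 higher and 3 lower genes per list, comparison and class whose interval lay beyond 1.5-fold. Not every gene picked in this way is printed for each comparison. Early-response genes and markers are given as values that move beside the members, and JUN, FOS, IL1B and, at Post-IS, CCL3 were picked after their values were seen. Likeness is Pearson's r of log2(CPM + 10) over genes with a mean of at least 50 CPM, and the first 5 genes were named. Alternatives were TMM scaling (edgeR 4.0.16, R 4.3.3), median of ratios, totals without abundant gene classes, equal weight per cell, thinning, possible doublets left out, other minimums, folds and offsets, and pooled labels. Possible doublets were cells with at least 2 markers of another lineage, 0.332% of Post-IS cells and 1.61% to 2.13% of the others.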

Additional observations from a re-analysis of the deposited data

Results flagged for a closer look

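At 4 wpt over Pre-IS, 2 members had intervals on opposite sides of 1 in different cell classes. TSC22D3 had log2 ratios of -0.56 in CD14+ monocytes, 0.16 in T cells and 0.54 in NK cells. DDIT4 had log2 ratios of -1.43 in MS4A7+ monocytes, 0.86 in T cells and 0.53 in NK cells. With 1 library per group the difference between classes was not tested.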

How the results depend on the processing

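No paired analysis was possible because each group is 1 library. Leaving out a library was not run, and the group cannot be told apart from its library. Post-IS depth limits the lymphocytes: its T cells held 143725 UMIs, against 1349957 at Pre-IS.

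Of 336 alternative counts 292 stayed within 1.5 times the main count. None of 538 alternative log2 ratios of single members reversed a called direction, and 7 left the interval of the main ratio. A reversal could be counted only where the main ratio was at least 1.5-fold. The 538 thus include ratios for which none could be counted. Of 88 alternative shares of cells (unthinned, 600 UMIs, and means over all draws) 43 left the interval of the share at 1000 UMIs.

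In cells thinned to 1000 UMIs, Post-IS over Pre-IS had 2 members higher in T cells. MS4A7+ monocytes had 1 higher at 4 wpt and 3 lower (of 4) at 8 wpt over Post-IS, and thinned comparisons with their 42 Pre-IS cells were not run. T cells had 0 higher and 1 lower at 4 wpt over Post-IS. At 2-fold, Post-IS over Pre-IS had 1 higher and 0 lower in T cells and 4 higher in CD14+ monocytes. 4 wpt over Pre-IS then had 0 higher in T cells and CD14+ monocytes and 1 higher and 1 lower in MS4A7+ monocytes. 8 wpt over Pre-IS had 1 lower in T cells, 0 higher and 0 lower in CD14+ monocytes and 1 lower in MS4A7+ monocytes. Over Post-IS, T cells had 0 higher at both later draws and 2 lower at 8 wpt.

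With cells weighted equally, PER1 and ZFP36L2 made 2 lower in CD14+ monocytes at Post-IS over Pre-IS, and T cells had 0 higher at 4 wpt over Post-IS, as with totals that left out abundant gene classes (0). With an offset of 2 UMIs, 4 wpt over Pre-IS had 1 lower in CD14+ and 1 higher in MS4A7+ monocytes, and T cells over Post-IS had 0 higher and 2 lower at 4 wpt and 0 higher at 8 wpt. With no minimum, MS4A7+ monocytes had 4 higher at 4 wpt and 1 higher and 4 lower at 8 wpt over Pre-IS. T cells had 1 higher at 8 wpt over Pre-IS, 2 higher and 1 lower at 4 wpt and 2 higher at 8 wpt over Post-IS. Also with no minimum, 1 member (KLF9) was lower in CD14+ monocytes than in T cells in all libraries. At a minimum of 50 UMIs, 8 wpt over Pre-IS had 0 lower in T cells and in MS4A7+ monocytes, and 4 were lower in MS4A7+ monocytes over Post-IS. With monocyte labels pooled, 1 was lower at 4 wpt and 1 higher at 8 wpt over Pre-IS. At 8 wpt over Pre-IS in MS4A7+ monocytes, TMM gave 1 higher and 1 lower and median of ratios 1 higher. In that class TMM and median of ratios each moved the median of all genes by 0.15 (log2). The cause was not tested beyond these settings' own construction (fewer members counted, a stricter fold).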

Other observations

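Classes of under 50 cells entered no comparison. Dendritic cells (30, 4, 23 and 29 cells at the 4 draws) had 5, 1, 21 and 6 UMIs of FKBP5, or 36.9, 83.0, 117 and 41.0 CPM. Proliferating NK and T cells (8, 2, 41 and 30 cells) had 8, 0, 45 and 18 UMIs of FKBP5. At Post-IS the 9 NK cells held 0 UMIs of FKBP5 and 8 of TSC22D3, and the 12 B cells held 3 and 12.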
